A study of Homo sapiens with 4 samples.

Results

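The E2F transcription factors and the retinoblastoma (RB) family of pocket proteins were examined in K562 cells with and without depletion of KLF3. The members were every probe of the deposited scanner table whose platform symbol was E2F1, E2F2, E2F3, E2F4, E2F5, E2F6, E2F8, RB1, RBL1 or RBL2, which gave 12 of the 47322 probes and 10 of the 20045 genes named by 1 symbol. K562 is a human erythroleukemia line from a patient with chronic myeloid leukemia in blast crisis. A stable K562 line carrying a short hairpin RNA against KLF3, a repressor of the Krüppel-like factor family that binds CACCC elements, was compared with a stable line carrying a control hairpin, both grown without further treatment. Each line was profiled on 2 Illumina bead arrays, and the second array of each is labelled a repeat. The design text speaks of profiles read in duplicate and names no separate cultures. The p-values therefore cover array-to-array spread, possibly technical, within 1 line per group.

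E2F proteins bind the promoters of genes needed for DNA synthesis and mitosis, mostly as dimers with a DP protein. E2F1, E2F2 and E2F3 are the activators, which RB1 binds and silences until cyclin-dependent kinases phosphorylate it. E2F4 and E2F5 act mainly as repressors with the pocket proteins RBL1 and RBL2, and in resting cells E2F4, a DP protein, RBL2 and the MuvB core form the DREAM complex. E2F6 lacks the pocket-binding region and represses through a polycomb complex, and E2F8 binds DNA without a DP partner and is itself made in S phase. In erythroid cells E2F4 is known from mice to be needed for the expansion of red cell precursors, and pocket proteins take part in their exit from the cycle.

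Promoters of the 3 genes that passed the test below are shown first, since the results turn on these genes. Sequences and starts are those of RefSeq on GRCh38.p14, each window running from 250 bases before to 50 bases after the outermost start, written 5′ to 3′ on the strand of the gene. Capitals mark CACCC, the core of the Krüppel-like factor element, on either strand. The windows are chr16:67191905-67192204 for E2F4 and chr16:53434221-53434520 for RBL2, both on the plus strand, and chr2:11466112-11466411 on the minus strand for E2F6.
E2F4: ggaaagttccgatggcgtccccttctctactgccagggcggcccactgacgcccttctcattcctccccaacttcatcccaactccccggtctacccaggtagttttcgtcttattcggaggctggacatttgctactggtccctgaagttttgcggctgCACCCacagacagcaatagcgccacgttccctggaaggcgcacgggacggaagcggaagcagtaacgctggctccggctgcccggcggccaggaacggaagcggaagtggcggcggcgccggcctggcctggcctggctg
RBL2: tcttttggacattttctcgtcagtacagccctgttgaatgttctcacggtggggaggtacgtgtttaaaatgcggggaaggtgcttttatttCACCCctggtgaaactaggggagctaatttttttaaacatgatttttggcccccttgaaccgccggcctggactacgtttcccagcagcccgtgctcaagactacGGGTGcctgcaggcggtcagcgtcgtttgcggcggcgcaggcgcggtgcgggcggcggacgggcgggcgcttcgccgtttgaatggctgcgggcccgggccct
E2F6: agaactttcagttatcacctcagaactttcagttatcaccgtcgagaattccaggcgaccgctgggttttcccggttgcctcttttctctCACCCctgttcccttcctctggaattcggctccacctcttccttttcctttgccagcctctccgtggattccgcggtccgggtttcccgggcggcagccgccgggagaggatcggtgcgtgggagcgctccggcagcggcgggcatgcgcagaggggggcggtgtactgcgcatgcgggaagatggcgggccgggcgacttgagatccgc

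The second set shows the stretch around the E2F octamers in the other searched windows, with the octamers on either strand in capitals. The octamers searched were TTTCCCGC, TTTCGCGC, TTTGCCGC, TTTGGCGC, TTTCGCGG and TTTGGCGG, a set picked with the members' promoters in view. The stretches are chr20:33686383-33686437 for E2F1 and chr20:37095991-37096038 for RBL1, both on the minus strand, chr1:23531253-23531305 on the minus strand for E2F2, and chr6:20401811-20401862 on the plus strand for E2F3.
E2F1: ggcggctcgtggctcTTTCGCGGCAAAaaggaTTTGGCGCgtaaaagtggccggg
E2F2: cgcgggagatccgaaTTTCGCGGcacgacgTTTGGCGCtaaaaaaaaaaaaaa
E2F3: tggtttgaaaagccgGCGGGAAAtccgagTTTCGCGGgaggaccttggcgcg
RBL1: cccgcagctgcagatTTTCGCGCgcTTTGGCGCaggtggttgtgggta

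An E2F octamer was found in 4 of the 7 windows searched, those of E2F1, E2F2, E2F3 and RBL1, and in 4.3% of the 35116 RefSeq windows of the same length. Since the set was picked with these promoters in view, nothing is read from that difference. In E2F1 the matches began at positions -37, -33 and -20 from the start, and the first overlapped the second. In E2F2 they began at -57 and -42, in E2F3 at -53 and -39, and in RBL1 at -26 and -16. The windows of E2F4, RBL2 and E2F6 held none of these octamers, which says only that these letters are not in these windows. CACCC was found in the windows of E2F4, RBL2, E2F6 and E2F2, which is 4 of 7 windows against 59.9% of all windows, so that its presence does not set these promoters apart. A match is a stretch of letters, not a shown binding site. For E2F5, E2F8 and RB1 no promoter is shown.

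The arrays detected between 15479 and 16182 probes each at a detection p under 0.01. Across the 15722 probes tested, log2 values of the arrays correlated with r = 0.996 within the control group, 0.995 within the knockdown group and 0.974 to 0.975 between groups. The knockdown itself could not be checked. Neither KLF3 probe was detected on any array, with intensities of 130 and 143 in control against 139 and 139 in knockdown for the first and 125 and 118 against 128 and 121 for the second. Of the 11 genes listed as K562 markers, 10 had a named probe and all 10 were detected. Of these 5 rose and 1 fell in the knockdown line, a share of 60% of 10 genes beside 35.9% of all genes tested. The globin genes HBZ, HBE1 and HBG1 rose by 2.25, 1.84 and 0.54 and the erythroid factor genes KLF1 and NFE2 by 0.49 and 0.30. The transferrin receptor gene TFRC fell by 0.60 (limma adjusted p of the 6 genes between 0.000105 and 0.0402, log2 scale). The HBG1 call was lost without control replicate 2, at a log2 difference of 0.48. For KLF1 and NFE2 the values under the alternatives are not given here. KLF1 was dim, at intensities of 226 and 220 in control and 256 and 258 in knockdown. HBZ lies on chromosome 16. GATA1, TAL1, EPOR and HBG2 did not pass, and the part of these erythroid differences in the values of the family was not tested. Among the markers of other lineages, none of the 5 T cell and none of the 5 fibroblast genes were detected in either group. Those detected were the B cell gene CD79B, the monocyte gene CD14 and the epithelial gene EPCAM. CD79B missed the detection limit on control replicate 1 and entered the test only through knockdown, so no p-value is given for it. The log2 difference of CD79B was 0.57, and its other probes were not detected on any array. CD14 was not detected in control and entered the test only through knockdown, so no p-value is given for it. On the background-corrected scale CD14 was at least 1.32-fold higher in knockdown, and without background correction its log2 difference was 0.16. Its second probe was not detected on any array. The limma call of CD14 was lost in 6 of 11 alternatives, among them those without control replicate 1, control replicate 2 or knockdown replicate 2. The 3 EPCAM probes differed by 0.08, 0.15 and 0.36 on the log2 scale, of which the last passed (limma adjusted p = 0.545, 0.268 and 0.031).

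Of the 10 family genes, 9 had a probe detected on both arrays of at least 1 group, and each of the 9 had 1 such probe. Between the groups, E2F4 and RBL2 rose in the KLF3 knockdown line, E2F6 fell, and the remaining 6 genes did not pass the threshold (limma with Benjamini-Hochberg adjustment over 15722 probes, threshold 0.05). Among all 9530 genes tested, 17.4% rose and 18.5% fell, 35.9% together, and among all probes tested 16.9% rose and 17.5% fell, 34.5% together. A count of 3 changed genes of 9 is near the background and is not a result about the family as a whole. The median log2 difference of the 9 genes was 0.19, against -0.01 over all genes. In 8 of the 9 genes the arrays of the groups did not overlap, as was so for 73.5% of all genes and 71.4% of all probes. Values are log2 of background-corrected, quantile-normalized signal with an offset of 16, a scale on which differences of dim genes are understated. With 2 arrays a group the smallest exact permutation p is 0.333, so the tests rest on the spread shared across probes. RNA of whole cultures was measured, so fewer cells of one kind and less RNA per cell cannot be told apart.

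**Figure D1:**
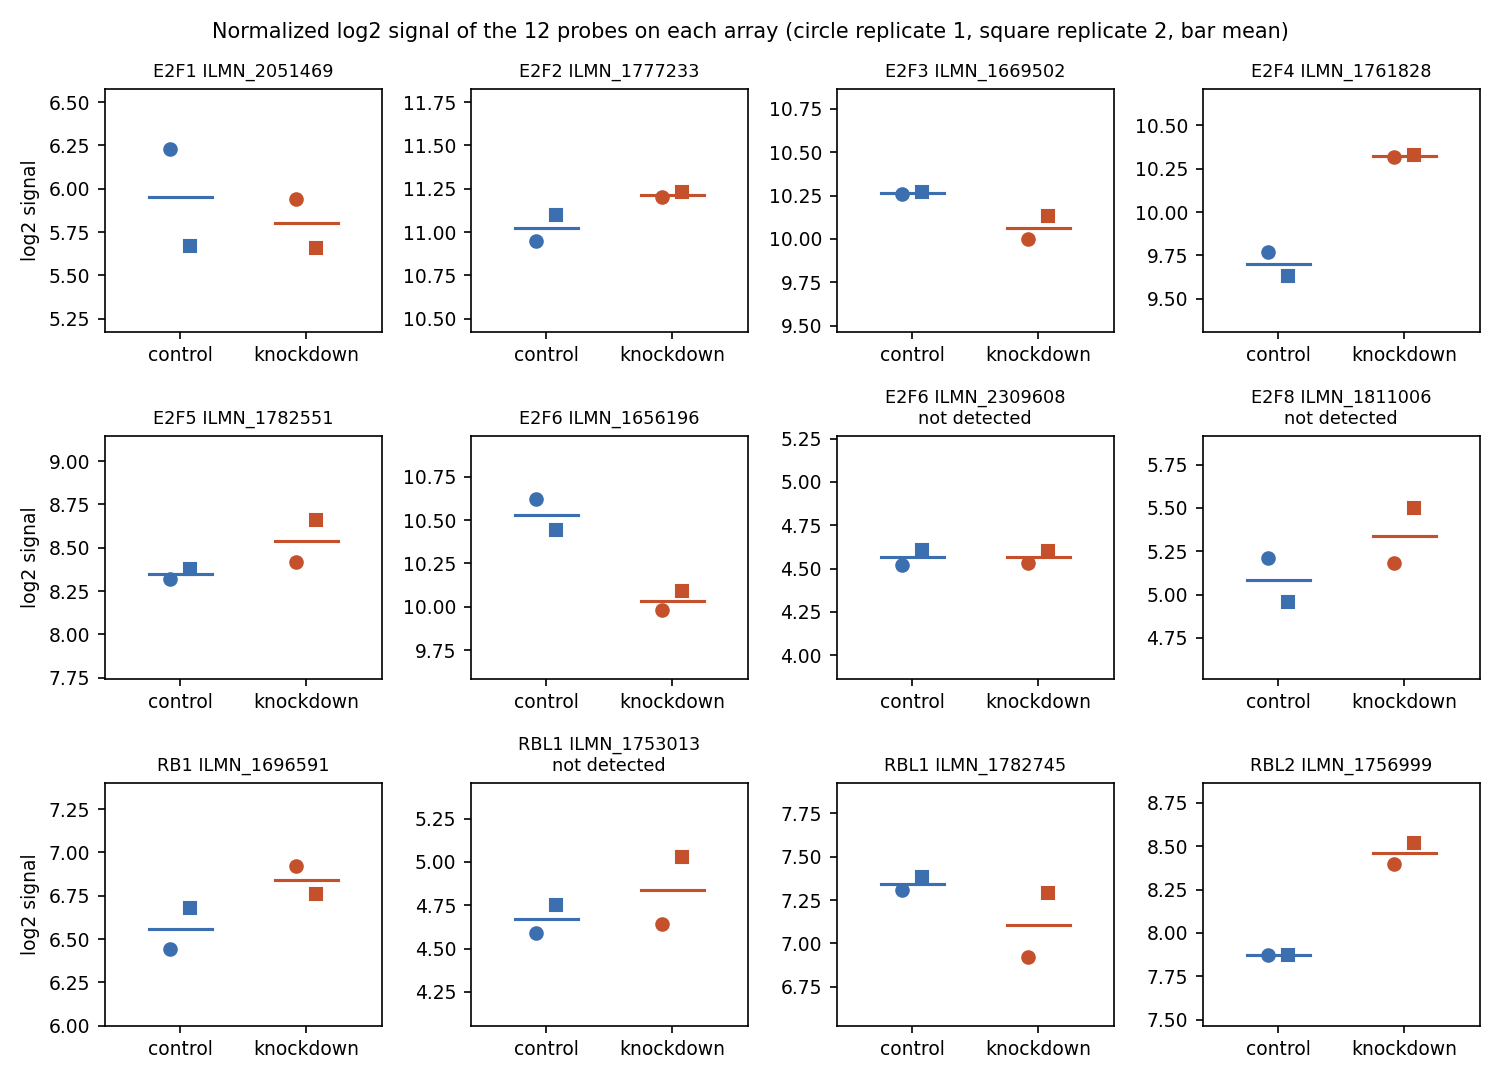
Normalized log2 signal (vertical axes, each spanning the same range) of the 12 probes on the 2 control and 2 KLF3 knockdown arrays; circles are replicate 1, squares replicate 2 and bars the mean of a group. The knockdown arrays lie above both control arrays by 0.55 for E2F4 and by 0.53 for RBL2 and below them by 0.35 for E2F6, and 3 probes were not detected.

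E2F4, the most abundant E2F protein of many cell types and a repressor when bound to a pocket protein, is located on chromosome 16 and was measured by 1 probe. Its log2 signal was 9.77 and 9.63 in control and 10.32 and 10.33 in knockdown. Both knockdown arrays lay above both control arrays, and the control arrays differed by less than the gap of 0.55 between the groups. The log2 difference was 0.63 (SE 0.09, 95% interval 0.40 to 0.85, limma adjusted p = 0.00562), or 1.55-fold. It passed the threshold under each of the 12 alternative settings tried.

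RBL2, the pocket protein gene whose product pairs with E2F4 in resting cells, also lies on chromosome 16. Its log2 signal was 7.87 and 7.87 in control and 8.40 and 8.52 in knockdown. The groups were again separate, by 0.53. The log2 difference was 0.59 (SE 0.09, 95% interval 0.37 to 0.81, limma adjusted p = 0.00629), or 1.51-fold, and without background correction it was 0.43. This call, too, held under each of the 12 settings.

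Genes of chromosome 16 were higher in general in the knockdown line. The median log2 difference of the 458 genes tested there was 0.36, while the medians of the other autosomes and of chromosome X lay between -0.11 and 0.03. On chromosome 16, 53.3% of genes rose and 4.15% fell, against 15.6% and 19.2% of genes elsewhere. Within the chromosome E2F4 lay above 354 of the 457 other genes and below 103, and RBL2 above 344 and below 113. Among the 20 nearest genes tested around E2F4, 10 rose and 0 fell, with a median of 0.32 and a range of -0.25 to 0.97. The adjoining genes tested, NOL3 and ELMO3, differed by -0.03 and -0.25. Around RBL2, 10 of 20 rose and 0 fell, with a median of 0.37 and a range of -0.50 to 1.12. The adjoining genes tested there, MPHOSPH10P1 and AKTIP, each differed by 0.14. The part of this chromosome-wide difference in the values of E2F4 and RBL2 was not tested.

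**Figure D2:**
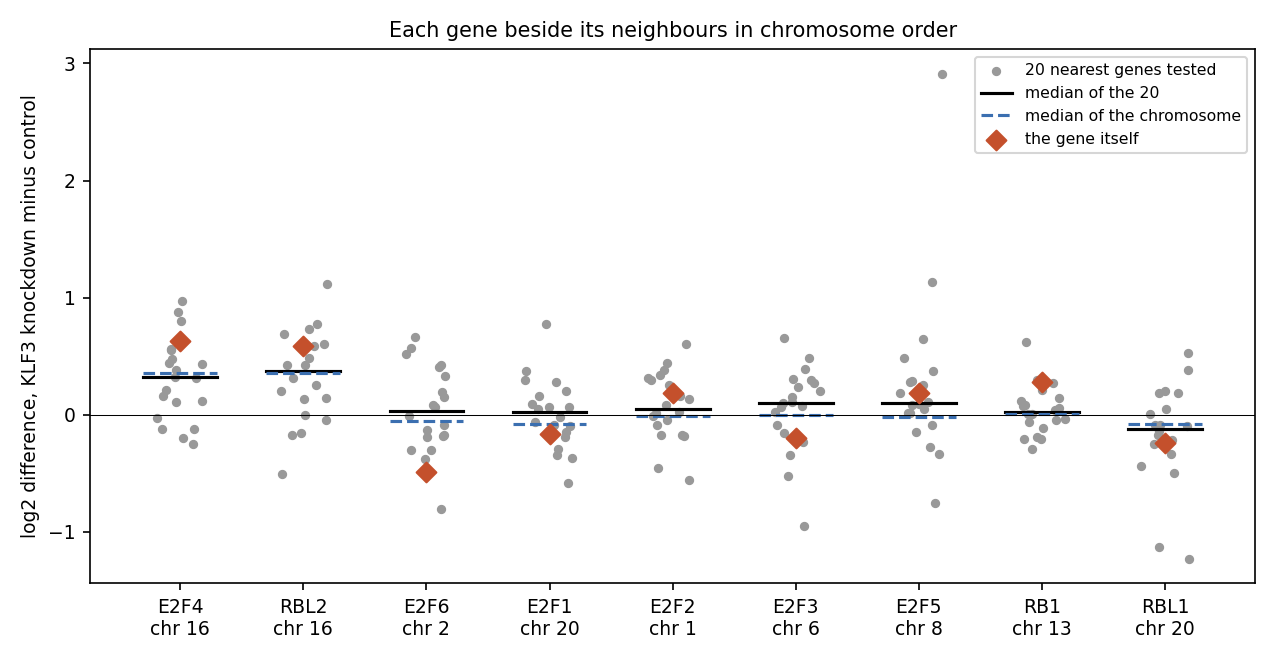
Log2 difference, KLF3 knockdown minus control (vertical axis), of each of the 9 detected family genes (diamonds) beside the 20 nearest genes tested in chromosome order (grey points, 10 on each side), their median (black line) and the median of the chromosome (dashed line). The medians around E2F4 and RBL2 are 0.32 and 0.37, and E2F6 at -0.49 lies below 19 of its 20 neighbours.

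Of the other repressors, E2F6 passed the threshold, E2F5 did not and E2F8 was not detected. E2F6, which represses E2F sites together with polycomb proteins, had 2 probes. The probe annotated to transcript NM_198256 read 10.62 and 10.44 in control and 9.98 and 10.09 in knockdown on the log2 scale. Both knockdown arrays lay below both control arrays, by 0.35. E2F6 fell by 0.49 (SE 0.10, 95% interval -0.74 to -0.24, limma adjusted p = 0.0154), or 1.41-fold lower. The call was lost without control replicate 1 (limma adjusted p = 0.0956) and with no filter on dim probes (limma adjusted p = 0.0686). The second probe, annotated to transcript NM_001278278, was not well above background on any array, at intensities between 112 and 118. On chromosome 2, E2F6 lay below 19 of the 20 nearest genes tested, whose median was 0.03.

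E2F5, the other E2F that works with RBL1 and RBL2, read 8.32 and 8.38 in control and 8.42 and 8.66 in knockdown on the log2 scale. The groups were separated by 0.04, less than the spread between the knockdown arrays. The log2 difference was 0.19 (95% interval -0.07 to 0.45, limma adjusted p = 0.217). E2F8 was not well above background: its probe gave intensities of 146 and 136 in control and 144 and 152 in knockdown, with detection p-values of 0.0714, 0.242, 0.0805 and 0.0143. No difference is given for it.

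None of the activators passed the threshold. E2F1, which drives S phase entry and at high levels apoptosis, was close to background, with log2 signals of 6.23 and 5.67 in control and 5.94 and 5.66 in knockdown. The groups overlapped, and the control arrays differed more from each other than the group means did. Its log2 difference was -0.16 (95% interval -0.64 to 0.32, limma adjusted p = 0.562), and without control replicate 1 it was 0.12, so no direction is given. An interval of this width includes a fall of the size seen for E2F6.

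E2F2, which in mice is the E2F activator linked to the last divisions of erythroblasts, read 10.95 and 11.10 in control and 11.20 and 11.23 in knockdown on the log2 scale. Its log2 difference was 0.19 (95% interval -0.04 to 0.42, limma adjusted p = 0.162). E2F3 read 10.26 and 10.27 in control and 10.00 and 10.13 in knockdown, a log2 difference of -0.20 (95% interval -0.43 to 0.02, limma adjusted p = 0.132). For both genes the groups did not overlap and the intervals bound the change at less than the difference estimated for E2F4. Under an intensity trend in the variance model both passed, with limma adjusted p of 0.0442 for E2F2 and 0.0415 for E2F3.

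Among the pocket proteins, RB1, the retinoblastoma tumor suppressor gene, read 6.44 and 6.68 in control and 6.92 and 6.76 in knockdown on the log2 scale. The knockdown arrays were higher by a gap of 0.08, less than the spread within either group. The log2 difference of 0.28 (95% interval -0.01 to 0.57) did not pass (limma adjusted p = 0.113). Without background correction the RB1 difference was 0.14. RBL1, which unlike RBL2 is made mostly in cycling cells, had 2 probes. The probe of transcript NM_002895 read 7.31 and 7.38 in control and 6.92 and 7.29 in knockdown. Its log2 difference was -0.24 (95% interval -0.58 to 0.09, limma adjusted p = 0.211), and 1 knockdown array decided it: without knockdown replicate 2 it was -0.43 (limma adjusted p = 0.0358) and without knockdown replicate 1 it was -0.06. Without background correction the RBL1 log2 difference was -0.14. The probe of transcript NM_183404 was not well above background on any array. RBL2 is therefore the only pocket protein gene of the 3 that passed the threshold in the main setting. Whether it differed from RB1 or RBL1 was not tested.

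**Figure D3:**
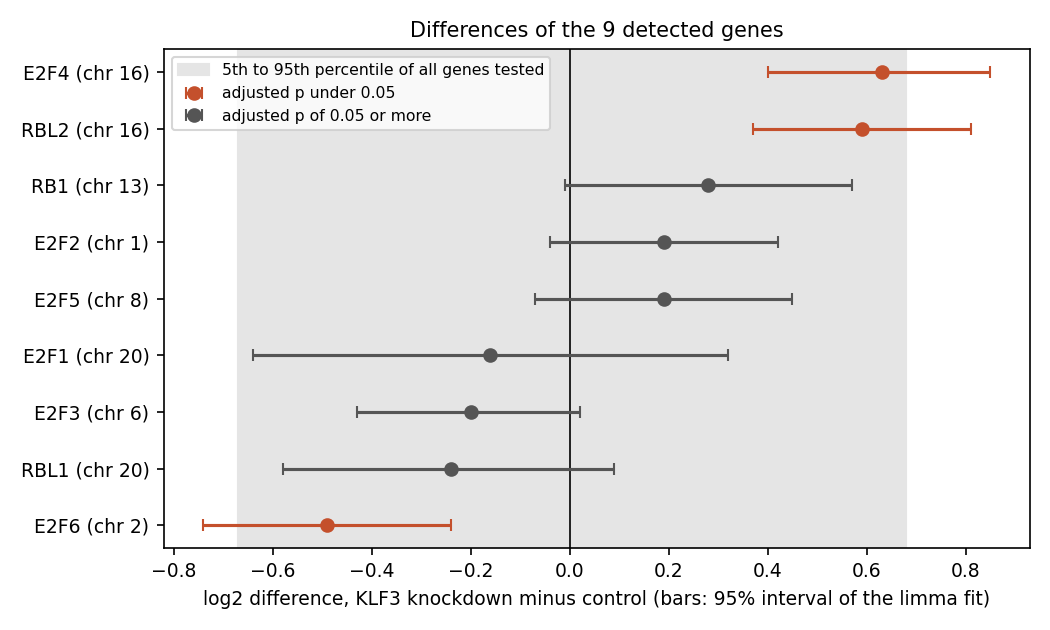
Log2 difference, KLF3 knockdown minus control (horizontal axis), of the 9 detected family genes with the 95% interval of the limma fit (n = 2 arrays a group); the grey band runs from the 5th to the 95th percentile of all 9530 genes, -0.67 to 0.68. Intervals of E2F4, RBL2 and E2F6 leave out 0 and all 9 point estimates lie inside the band.

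The genes that work with the family were then described from 8 lists, a few genes of which stand in more than 1 list. Among the DP partners, TFDP2 rose and TFDP1 did not pass. TFDP2 read 8.82 and 8.65 in control and 9.79 and 9.79 in knockdown on the log2 scale, with no overlap. Its log2 difference was 1.06 (SE 0.10, limma adjusted p = 0.00141), or 2.08-fold, and its second probe gave 1.05. TFDP2 lies on chromosome 3, where the median was 0.02, and its difference was above those of all 20 nearest genes tested. Of these 20 genes 9 rose and 1 fell, with a median of 0.18. TFDP1 differed by 0.12 (95% interval -0.10 to 0.35, limma adjusted p = 0.333).

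Of 7 measured genes of the MuvB core and its partners, 1 rose and 1 fell, a share of 28.6% against 35.9% of all genes. The median was -0.03. RBBP4, a histone-binding subunit of MuvB and of several other complexes, rose by 0.84 (SE 0.09, limma adjusted p = 0.00261), from 9.07 and 9.0 to 9.95 and 9.81. This rests on 1 of 3 RBBP4 probes, that with the highest mean, and the others gave log2 differences of 0.21 and -0.01, neither of which passed (limma adjusted p = 0.423 and 0.958). LIN37, another MuvB subunit, fell by 0.46 (limma adjusted p = 0.02). The LIN37 call was lost without control replicate 1, control replicate 2 or knockdown replicate 1. It was also lost with no filter on dim probes (limma adjusted p = 0.0834). Without background correction LIN37 fell by 0.18. LIN52, LIN54 and LIN9 differed by 0.41, 0.18 and -0.14 and did not pass. The counts of this list depended on the setting and also moved without control replicate 2. There were 2 higher genes with median scaling, with detection on all 4 arrays and with 1 probe per gene, among other settings. There were 2 lower genes in the last 2 of these settings, without background correction and with the deposited processed values. With no filter there were 1 higher and 0 lower genes. In the E2F6 complex 0 of 9 measured genes passed in limma, 2 of them having an unadjusted p under 0.05. These were MGA and L3MBTL2, at -0.59 and -0.29, and the median of the 9 was -0.12. This 0 depended on the setting. In the E2F6 complex 2 genes passed as lower without background correction, with the deposited processed values, with detection on all 4 arrays, with 1 probe per gene, with an intensity trend and without knockdown replicate 2, and 1 gene without knockdown replicate 1 and with the replicate block.

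Upstream of the pocket proteins, 4 of 12 measured genes of the RB kinases, their cyclins and their inhibitors rose and 2 fell. The share of 50% of 12 genes stands beside 35.9% of all genes and is not a result about the list. The median was 0.10. The inhibitors moved both ways. CDKN1A, encoding the p21 inhibitor, read 9.02 and 8.96 in control and 7.85 and 7.85 in knockdown and was 2.20-fold lower (limma adjusted p = 0.000759). CDKN1C, an inhibitor of the same protein family, read 6.53 and 6.69 in control and 7.83 and 7.84 in knockdown and was 2.34-fold higher (limma adjusted p = 0.000886), a log2 difference of 1.22 that was 0.70 without background correction. CDKN2D, which blocks the cyclin D kinases, fell by 0.74 (limma adjusted p = 0.00306), and by 0.45 without background correction. The cyclin D kinase gene CDK6 rose by 0.62 (limma adjusted p = 0.00429), and the cyclin gene CCND3 by 0.55 (limma adjusted p = 0.0123). The CCND3 call was lost without control replicate 2 and with no filter on dim probes (limma adjusted p = 0.0589 with no filter). CDK4, CDK2 and CCNE1 differed by -0.17, 0.09 and 0.02 and did not pass. Without control replicate 2 the list had 2 higher and 2 lower genes.

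Among corepressors and other proteins that bind RB, 1 of 13 measured genes rose and 3 fell. This was a share of 30.8% against 35.9% of all genes, with a median of -0.09. SUV39H1, a histone H3 methyltransferase, fell by 0.55 (limma adjusted p = 0.00635), and the Sin3 scaffold genes SIN3A and SIN3B by 0.48 and 0.35 (limma adjusted p = 0.0131 and 0.0318). Without background correction SIN3B fell by 0.19. SMARCA4, a chromatin remodelling ATPase gene, rose by 0.33 (limma adjusted p = 0.0377). HDAC1, HDAC2 and HDAC3 differed by -0.15, -0.09 and 0.04 and did not pass. All 4 calls were lost without control replicate 1, SUV39H1 being nearest with a limma adjusted p = 0.0506. Without control replicate 2 SUV39H1 alone passed, and without knockdown replicate 1 the list had 2 higher and 2 lower genes.

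Downstream, 12 of 38 measured G1/S targets of E2F rose and 2 fell, where 17.4% of all genes rose and 18.5% fell. Both directions together were 36.8% of the list against 35.9% of all genes, with a list median of 0.10. A lean of the list to higher values was not tested. EZH2, a histone H3 methyltransferase gene and E2F target, rose by 0.77 (SE 0.10, limma adjusted p = 0.00392), from 9.81 and 9.66 to 10.57 and 10.45, and its other 2 probes gave 0.97 and 0.83. NASP, a histone chaperone gene, rose by 0.76 (SE 0.09, limma adjusted p = 0.00312), and TYMS, the thymidylate synthase gene, by 0.51 (limma adjusted p = 0.00775). The flap endonuclease gene FEN1 and the polymerase gene POLE fell by 0.51 and 0.64 (limma adjusted p = 0.00951 and 0.0119). GINS2 and CDT1, which license and assemble the replicative helicase, lie on chromosome 16 and each rose by 0.42 (limma adjusted p = 0.0136 and 0.0144). PCNA, MCM2 and CCNE1 differed by -0.15, -0.05 and 0.02 and did not pass. The number of higher genes was 2 without either control array, these being NASP and EZH2 in each case, 9 without knockdown replicate 1 and 8 without knockdown replicate 2. The calls of TYMS and FEN1 were lost without either control array. That of POLE was lost without control replicate 2 and with no filter on dim probes (limma adjusted p = 0.0621 with no filter).

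Of 29 measured G2/M genes repressed by DREAM, 6 rose and 3 fell. This was a share of 31.0% against 35.9% of all genes, with a median of 0.03. BIRC5, the survivin gene, rose by 0.56, the mitotic kinase genes PLK1 and AURKA by 0.54 and 0.36, and the cyclin kinase subunit gene CKS2 fell by 0.40, as did CDCA3 by 0.33 and the kinesin gene KIF20A by 0.32 (limma adjusted p between 0.00831 and 0.0387). PLK1 lies on chromosome 16. The second CKS2 probe gave -0.07. All 9 calls were lost without control replicate 1, and 1 higher gene, BIRC5, remained without control replicate 2. Without knockdown replicate 1 the list had 4 higher and 3 lower genes, and without knockdown replicate 2 it had 2 and 1. CDK1 and TOP2A differed by 0.18 and 0.02 and did not pass.

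**Figure D4:**
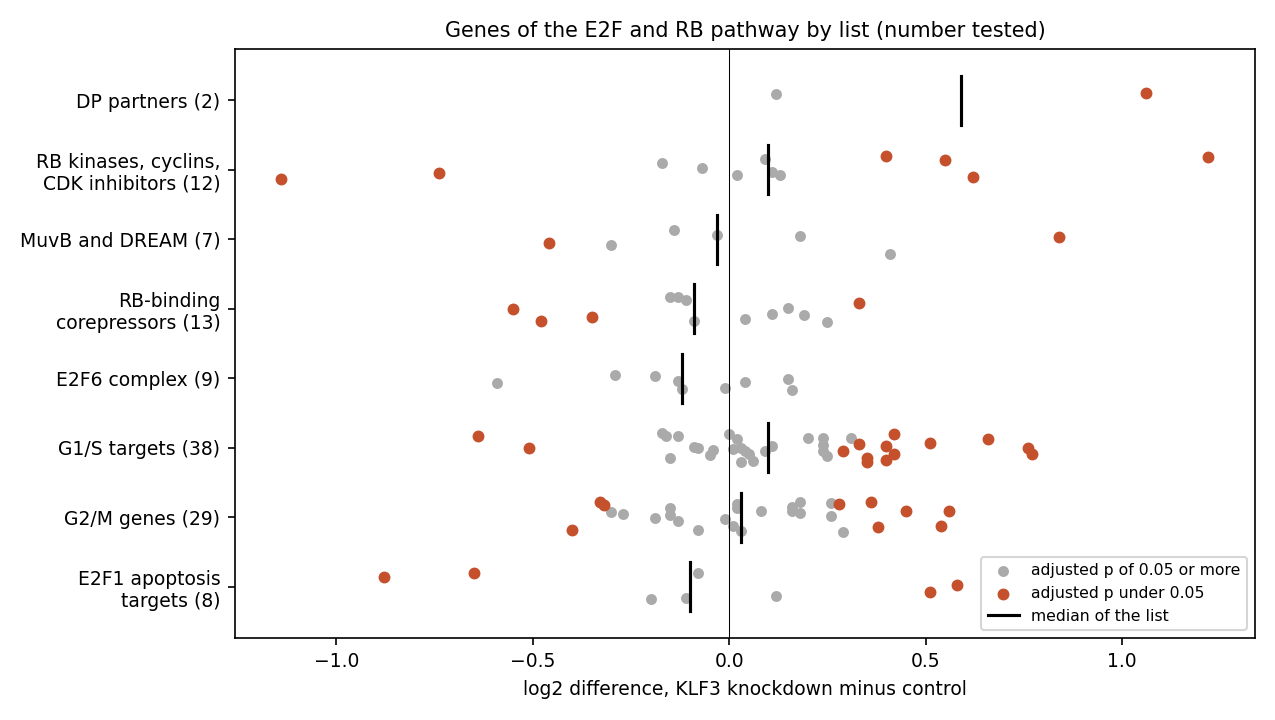
Log2 difference, KLF3 knockdown minus control (horizontal axis), of each measured gene of 8 lists around the E2F and RB family (number tested in brackets); red points passed limma at an adjusted p under 0.05, grey points did not, and black lines are list medians. Medians lie between -0.12 and 0.10 in the 7 lists other than that of the 2 DP partners, where TFDP2 stands at 1.06.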

How the data were processed

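Per the labels' protocols, Trizol was used to extract total RNA, which was amplified with an Illumina kit; the label was biotin. The deposited scanner table gave a linear mean intensity per probe, not normalized as its name states, and a deposited detection p-value. A second deposited table of the authors' intensity values had the same sorted values on every array to within 0.303%, as after quantile normalization. The software behind it is not given here. From the scanner table, log2 values were computed with neqc of limma 3.58.1 (R 4.3.3, offset 16, background from the deposited detection p-values). A probe was kept where 1 group or both had a detection p under 0.01 on its 2 arrays. Names came from the platform annotation, updated by gene identifier to GRCh38.p14; 30112 probes had 1 symbol, 8 several and 17202 were not listed. The groups were compared in 1 limma fit over all kept probes (lmFit and eBayes, two-sided, no covariate, 2 residual and 4.09 prior degrees of freedom), tested first on simulated data, and a gene was read on its kept probe with the highest mean. A gene undetected in 1 group is given as a bound against the lowest detected signal. The number of arrays limits the precision. Alternatives changed the background correction, normalization, source table, filter, unit of the fit, variance model and arrays used. Members, lists and rules were chosen with earlier results of these data known. Named were all members, KLF3, marker genes and at most 3 changed genes per direction and list by adjusted p; any other gene was picked with its values known. The labels tie no repeat array to the other group, and the replicate differences of the groups correlated at 0.01.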

Additional observations from a re-analysis of the deposited data

How the results depend on the processing

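Every member difference kept its sign under all 12 alternatives except E2F1, which was 0.12 without control replicate 1 and -0.43 to -0.02 without 1 of the other arrays. E2F4 and RBL2 passed under every alternative, joined by E2F2 with the deposited processed values and with an intensity trend. The count of lower genes, and of lower probes, was 2 in place of 1 without background correction, with the deposited processed values and with an intensity trend, E2F3 being the second, and 0 with no filter, where E2F6 had an unadjusted p of 0.00455. Leaving out 1 array gave 0 to 2 lower genes and probes. All probes called numbered 5420, 2273 with no filter and 2053 to 4789 without 1 array. With the replicate block 4836 probes passed and no member changed its call; the labels do not show that the repeat arrays are paired. Counts of the pathway lists moved more: G1/S genes higher numbered 2 to 17 G2/M genes higher 0 to 10 and E2F6 complex genes lower 0 to 2. With no filter on dim probes, G1/S genes higher numbered 3 and lower 2, and G2/M genes 1 and 0. In that setting RB-binding proteins and corepressors higher numbered 0 and lower 1. The mean over several kept probes was not run because each detected member had 1, and a slide block was not run because no header gives a slide. Signal near background limits E2F1, E2F8 and the undetected probes of E2F6 and RBL1.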

Other observations

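Of 8 measured apoptosis targets of E2F1, 2 rose and 2 fell in the KLF3 knockdown line, with a median log2 difference of -0.10. This share of 50% of 8 genes stands beside 35.9% of all genes and is not a result about the list. PMAIP1, a BH3-only gene, and APAF1, the apoptosome scaffold gene, rose by 0.58 and 0.51 (limma adjusted p = 0.0108 and 0.0217). The second APAF1 probe entered the test only through knockdown, so no p-value is given for it. Its log2 difference was 0.33, and 0.11 without background correction. CASP9, the initiator caspase that APAF1 activates, read 8.73 and 8.70 in control and 8.07 and 8.06 in knockdown and fell by 0.65 (limma adjusted p = 0.00383). The second CASP9 probe gave -0.32 (limma adjusted p = 0.0485), and -0.19 without background correction. CASP8 was detected in control and not in knockdown. It entered the test only through control, so no p-value is given for it. On the background-corrected scale it was at least 1.36-fold lower, and without background correction its log2 difference was -0.30. The other CASP8 probes were not detected on both arrays of either group. With detection required on all 4 arrays the list had 1 lower gene. BBC3 and BCL2L11 differed by -0.08 and 0.12 and did not pass. Without control replicate 1 the calls of PMAIP1 and APAF1 were lost, at log2 differences of 0.48 and 0.52, and CASP9 differed by -0.63. With no filter on dim probes the calls of PMAIP1 and APAF1 were lost too (limma adjusted p = 0.0539 and 0.0946). APAF1 was also lost without control replicate 2 and without knockdown replicate 2 (limma adjusted p = 0.104 and 0.0506).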
